A study of Mus musculus with 2 samples.

Results

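The Mrc1 Cd163 Folr2-high macrophages were the tumor macrophages with the largest share of RNA from Mrc1, Cd163 and Folr2. For each cell, the unique molecular identifiers (UMIs, each one captured RNA molecule) of these 3 genes were summed and divided by all UMIs of the cell, and the top 5% of the pooled cells were taken. This gave 718 cells of 14351, of which 473 came from Fcmr+/+ and 245 from Fcmr-/- tumors. They are called high-marker cells here, and all remaining cells are called the other cells. The rule used measured values, so contrasts between the high-marker cells and the other cells are given as descriptions with no test.

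The study profiled MerTk+ CD64+ mononuclear phagocytes, sorted by flow cytometry from B16 melanomas of 500-1000 mm3 grown in C57Bl/6 mice, to ask how loss of Fcmr, a receptor for the Fc part of IgM, bears on the makeup of these cells. One group carried both Fcmr copies and the other, from littermates, carried none. Each genotype was 1 droplet single-cell library (10X Chromium, 3′ end) of 6352 Fcmr+/+ and 7999 Fcmr-/- cells kept, with 128408544 and 124630621 UMIs, and the number of mice behind each library was not given in the sources used here. With 1 library per genotype no spread between mice could be measured, so no p-value is given and the 95% intervals (Poisson for levels, Clopper-Pearson for shares, exact binomial for ratios) cover counting error alone. Fcmr itself had 0 UMIs in the high-marker cells of either library, and 7 UMIs in the other Fcmr+/+ cells against 6 in the other Fcmr-/- cells, so its RNA could not check the genotype labels at this depth. The libraries had 73 cell barcodes in common, and 8 high-marker cells carried one of them.

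Mrc1 encodes the mannose receptor (CD206), an endocytic receptor for sugar chains ending in mannose, fucose or N-acetylglucosamine. Cd163 encodes the scavenger receptor for hemoglobin bound to haptoglobin, and Folr2 encodes folate receptor beta. Macrophages with these receptors, often together with Lyve1, the hyaluronan receptor of lymphatic vessels, are known from resting tissues, where many lie along blood vessels. In tumors the same receptors are used to mark tissue-resident and tumor-promoting macrophage states.

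The sequence before a start of each of the 3 genes is shown because their transcripts chose the cells. Each is the 250 bases before a RefSeq start (GRCm38.p6), 5′ to 3′ on the gene's strand, and capitals mark TTCCTC (the reverse of GAGGAA, the core bound by PU.1, the master factor of macrophages) or TGCTGA (a half-site of the MAF family, its reverse TCAGCA), searched on both strands.
Mrc1, chr2:14229164-14229413, plus strand: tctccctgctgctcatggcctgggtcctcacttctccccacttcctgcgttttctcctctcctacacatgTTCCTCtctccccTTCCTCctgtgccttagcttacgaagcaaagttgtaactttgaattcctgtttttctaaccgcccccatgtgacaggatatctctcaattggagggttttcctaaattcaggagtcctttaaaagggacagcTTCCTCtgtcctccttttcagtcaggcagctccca
Cd163, chr6:124304401-124304650, plus strand: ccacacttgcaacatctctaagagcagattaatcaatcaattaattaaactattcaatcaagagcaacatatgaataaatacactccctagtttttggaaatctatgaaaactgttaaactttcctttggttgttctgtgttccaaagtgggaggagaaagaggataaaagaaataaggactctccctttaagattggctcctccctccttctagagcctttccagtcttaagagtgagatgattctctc
Folr2, chr7:101857191-101857440, minus strand: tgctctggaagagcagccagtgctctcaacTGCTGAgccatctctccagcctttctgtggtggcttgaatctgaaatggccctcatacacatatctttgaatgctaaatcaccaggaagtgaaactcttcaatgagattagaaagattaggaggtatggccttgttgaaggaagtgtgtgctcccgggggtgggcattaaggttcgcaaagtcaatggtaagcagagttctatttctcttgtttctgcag
The Mrc1 window held 3 copies of TTCCTC, the Folr2 window held 1 TGCTGA, and the Cd163 window held neither. The window before a second RefSeq start of Folr2 (chr7:101845332-101845581), not shown, also held 1 TGCTGA. Of 32851 RefSeq promoters of this length, 23.3% held GAGGAA and 16.1% TGCTGA on either strand, so these matches are a description of the letters only. In the annotation of the same build (GENCODE M21), Mrc1 (ENSMUSG00000026712) spans chr2:14229392-14332057, Cd163 (ENSMUSG00000008845) chr6:124304656-124330527 and Folr2 (ENSMUSG00000032725) chr7:101839988-101857194.

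Mrc1 carried most of the ranking. It supplied 77.0% of the 3 genes' UMIs in Fcmr+/+ high-marker cells and 72.0% in Fcmr-/- high-marker cells, and was the most abundant of the 3, alone or tied, in 457 of 473 and 228 of 245 cells (7 Fcmr-/- cells had a tie). Levels below are CPM, the gene's UMIs summed over a group of cells per 1000000 UMIs of that group. Mrc1 stood at 2225 CPM (2196-2255) in the high-marker cells and 797 CPM in the other cells of the Fcmr+/+ library, and at 2100 CPM (2053-2147) and 582 CPM in the Fcmr-/- library. Folr2 stood at 559 and 216 CPM in Fcmr+/+, and at 677 and 149 CPM in Fcmr-/-. Cd163 was the scarcest, at 106 and 19.8 CPM in Fcmr+/+ and at 139 and 5.37 CPM in Fcmr-/-. These values restate the rule.

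The markers did not mark the same cells to the same degree. All 3 transcripts were found together in 42.5% of Fcmr+/+ and 29.0% of Fcmr-/- high-marker cells, while in 54.8% and 64.5% Mrc1 and Folr2 were found and no UMI of Cd163. Depth differed between these cells, and at 5000 UMIs per cell Cd163 was found in 24.3% and 21.2% (43.3% and 29.0% unthinned). The tenth of Fcmr+/+ high-marker cells with the most UMIs of a gene held 19.5% of the Mrc1 UMIs, 26.8% of the Folr2 UMIs and 70.8% of the Cd163 UMIs, and in Fcmr-/- these shares were 22.4%, 26.7% and 70.7%. Mrc1 dominates the sum that chose the cells, so its even spread follows from the rule. The rule cut a continuous range: the last cell inside had 2310.6 CPM of the 3 genes (98 Mrc1, 0 Cd163 and 35 Folr2 UMIs), the first outside 2309.7 CPM (34, 0 and 14), and the highest cell 6545 CPM.

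When cells were ranked on a random 50% of their UMIs and the levels read from the other 50%, which the ranking had not used, 545 of the 718 cells were chosen again. In the unused UMIs Mrc1 stood at 2050 against 819 CPM in Fcmr+/+ and at 1852 against 592 CPM in Fcmr-/-. Cd163 stood at 104 against 20.4 CPM and at 113 against 5.82 CPM, and Folr2 at 513 against 221 CPM and at 564 against 152 CPM. The marker levels of the chosen cells were somewhat lower in the unused UMIs, and each remained above the other cells in both libraries.

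High-marker cells made up 7.45% of Fcmr+/+ cells (6.81-8.12%) and 3.06% of Fcmr-/- cells (2.70-3.46%). The Fcmr+/+ library held 44.3% of all cells and 65.9% of the high-marker cells. The median share of the 3 genes was 2764 and 2753 CPM in the chosen cells of the 2 libraries. Both passed the same cut on this share, so the rule itself brings these medians together. The other cells had 835 CPM in Fcmr+/+ and 533 CPM in Fcmr-/-, and no UMI of the 3 genes was found in 270 Fcmr+/+ and 852 Fcmr-/- cells. Median depth was 20095 UMIs in Fcmr+/+ high-marker cells against 17745 in the other cells, and 13332 against 12896 in Fcmr-/-. The median share of mitochondrial UMIs was also higher in the high-marker cells, at 5.95% against 4.61% in Fcmr+/+ and 5.54% against 4.04% in Fcmr-/-, and of 353 cells above 10% mitochondrial UMIs 79 were high-marker cells. Without cells above 10% mitochondrial UMIs the high-marker cells were 7.43% and 3.08% of the libraries, and with every cell thinned to 5000 UMIs before ranking 7.37% and 3.13%. Genotype, library and mouse cannot be told apart.

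The high-marker cells carried the transcripts of the macrophage lineage and of the sort. Adgre1 (F4/80) stood at 455 CPM in Fcmr+/+ and 506 CPM in Fcmr-/- high-marker cells, Csf1r, the receptor for the macrophage growth factor, at 439 and 437 CPM, and Mertk, used in the sort, at 71.5 and 60.8 CPM. Of the 10 macrophage identity genes, 8 in Fcmr+/+ and 7 in Fcmr-/- were above the other cells, with a median log2 ratio of 0.27 and 0.37, and of all genes 63.5% and 64.5% were above. Defining genes of other cell types were low, apart from the melanoma list. Of 4325 cells with other cell types' markers, which an alternative left out, 131 were high-marker cells. The 8 T and NK cell genes summed to 0.202 CPM in Fcmr+/+ and 0.27 CPM in Fcmr-/- high-marker cells, with Gzmb the most abundant and Cd3d, Cd3e, Cd3g and Nkg7 at 0 UMIs in both, and none of the 30 cells with 5 or more of these UMIs was a high-marker cell. The 10 endothelial genes summed to 7.89 and 10.8 CPM with Vwf the most abundant and Cldn5 and Emcn at 0, and the 10 fibroblast and pericyte genes to 6.98 and 6.48 CPM with Acta2 or Sparc the most abundant and Lum, Pdgfra and Rgs5 at 0. Mast cell and basophil genes had 0 UMIs. The 6 B and plasma cell genes summed to 8.39 and 10.3 CPM (Cd79b highest; Ms4a1 at 0), the 9 neutrophil genes to 14.8 and 25.1 CPM (Csf3r highest; Ly6g at 0), and the 10 dendritic cell genes to 2.53 and 5.94 CPM (Kmo highest). Melanoma genes summed to 96.5 and 118 CPM against 82.7 and 115 CPM in the other cells, led by Mitf, which macrophages also express. Each of these lists apart from the melanoma list and, in Fcmr+/+, the fibroblast list was lower in the high-marker cells than in the other cells.

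Beyond the rule genes, 41 genes were at least 2-fold higher in the high-marker cells of both libraries, of 5371 with 20 CPM or more in each (0.763% of genes), and 51 were at least 2-fold lower (0.95%). The count of lower genes was 15 with Mrc1 left out of the ranking and 98 at a minimum of 5 CPM, and that of higher genes 74 with the top 2% of cells and 23 at a minimum of 50 CPM. Within single libraries the counts were 48 higher (0.868%) and 76 lower (1.37%) in Fcmr+/+, and 105 higher (1.86%) and 92 lower (1.63%) in Fcmr-/-. Among the genes measured in both, the 41 shared genes were 93.2% of the 44 higher in Fcmr+/+ and 42.7% of the 96 higher in Fcmr-/-, and no gene was 2-fold higher in one library and 2-fold lower in the other. The cells were chosen on the same data, so these counts are a description. Ratios are on the log2(CPM + 1) scale, and the median over all genes was 0.07 in Fcmr+/+ and 0.10 in Fcmr-/-.

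**Figure D1:**
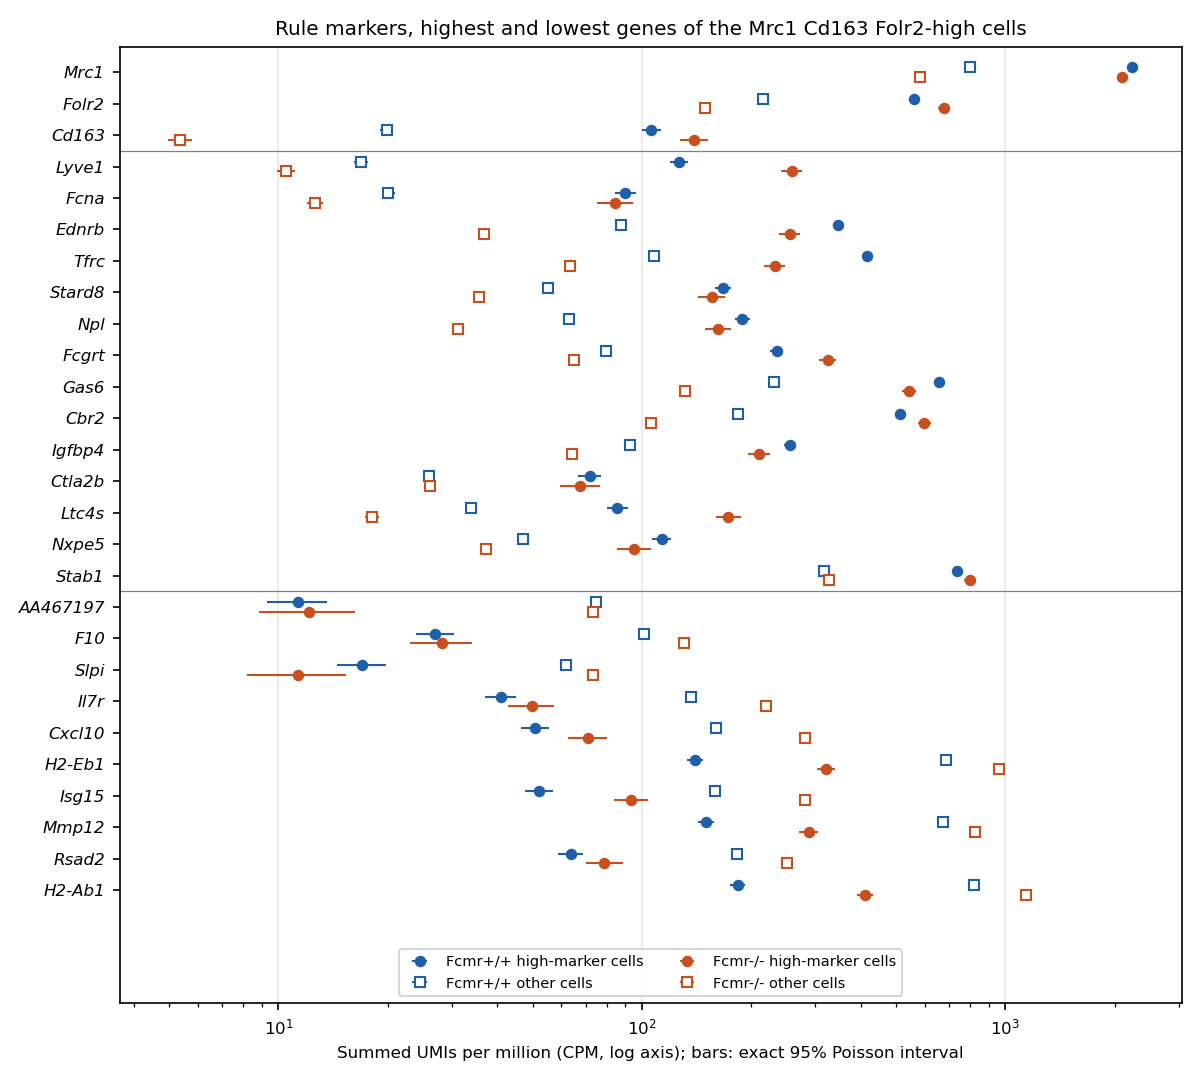
Levels of the 3 rule markers (top), genes of the 15 highest (middle) and the 10 genes lowest (bottom) in high-marker cells. Highest and lowest were ranked among genes with 50 CPM or more in either group of cells in both libraries. The x axis is CPM on a log scale, filled circles are high-marker cells, open squares the other cells, blue Fcmr+/+ and orange Fcmr-/-, and bars are exact 95% Poisson intervals. Lyve1 had the widest gap among the middle genes in both libraries (126 against 16.9 CPM and 258 against 10.5 CPM), and every lowest gene lay left of the other cells in both.

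The gene with the largest ratio in both libraries, by its weaker library, was Lyve1 (ENSMUSG00000030787, chr7:110850607-110863239). It stood at 126 CPM (119-134) in Fcmr+/+ and 258 CPM (242-275) in Fcmr-/- high-marker cells, against 16.9 and 10.5 CPM in the other cells, a log2 ratio of 2.83 (2.73-2.93) and 4.49 (4.38-4.61). Fcna, which encodes ficolin A, a secreted sugar-binding protein of the lectin complement pathway, stood at 90.1 and 84.6 CPM against 20.1 and 12.6 CPM. Both genes lay well above the other cells in each library and are known from resident macrophages.

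Of the receptors among the 15, Ednrb, the endothelin B receptor, stood at 347 and 255 CPM against 87.8 and 36.7 CPM, and Tfrc, the transferrin receptor for iron uptake, at 415 and 232 CPM against 108 and 63.5 CPM. Fcgrt, the heavy chain of the neonatal Fc receptor that recycles IgG and albumin, stood at 235 and 324 CPM against 79.6 and 64.9 CPM. Stab1, a scavenger receptor for modified lipoproteins and apoptotic cells, stood at 738 and 797 CPM against 317 and 327 CPM, and its log2 ratios of 1.22 and 1.28 differed less between libraries than those of Ednrb (1.97 and 2.76) and Fcgrt (1.55 and 2.30).

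Secreted and enzyme genes made up most of the rest. Gas6, the ligand that bridges dying cells to the receptor MerTk, stood at 659 CPM (Fcmr+/+) and 544 CPM (Fcmr-/-) against 230.3 and 132 CPM, with log2 ratios of 1.51 and 2.04. Cbr2, a carbonyl reductase, stood at 512 and 599 CPM against 184 and 106 CPM. Ltc4s, leukotriene C4 synthase, had the least even ratios of the 15, at 1.31 in Fcmr+/+ (85.7 against 33.9 CPM) and 3.19 in Fcmr-/- (173 against 18.1 CPM). Others of the 15 were Igfbp4, a binding protein for insulin-like growth factors (1.46 and 1.69), Npl, an enzyme that breaks down sialic acid (1.57 and 2.34), Stard8 (1.58 and 2.10), Ctla2b (1.43 and 1.34) and Nxpe5 (1.26 and 1.32). Named genes needed 50 CPM in either group of cells in both libraries, and below that limit the 2-fold set also held Pros1, like Gas6 a ligand of MerTk (1.08 and 1.45), Pdgfc, a growth factor for stromal cells (1.40 and 1.33), and C4b of the complement cascade (2.34 and 2.19).

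To compare detection at equal depth, every cell was thinned to 5000 UMIs, which all cells had. Lyve1 was then found in 21.99% of Fcmr+/+ and 31.0% of Fcmr-/- high-marker cells (32.6% and 37.1% unthinned) against 2.96% and 1.88% of the other cells. Gas6 was found in 85.0% and 77.1% (92.8% and 89.0% unthinned) against 42.0% and 26.8%, and Ednrb in 57.7% and 48.6% (74.4% and 64.9% unthinned) against 20.5% and 10.8%. The 30 cells with T and NK transcripts, with a median of 18912.5 UMIs, served as the background from free RNA or joined cells, and 28 of them came from Fcmr-/- and 2 from Fcmr+/+, so for Fcmr+/+ it is a background from the other library. Thinned, they showed Lyve1 in 0% (which allows up to 10%), Ednrb in 3.33% and Cd163 in 3.33%. Gas6 was found in 10% of them, Folr2 in 16.7% and Mrc1 in 40%. Any Lyve1 share below 10% would lie within that limit. A background of 30 cells thus cannot tell whether Lyve1 in the other cells was their own RNA, and its origin was not tested.

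The 10 genes lowest in high-marker cells, of those that met the limit of 50 CPM for naming, included H2-Eb1, H2-Ab1, Isg15, Rsad2 and Cxcl10. H2-Eb1 and H2-Ab1 encode beta chains of MHC class II, which presents peptides to CD4+ T cells. H2-Eb1 stood at 140.2 CPM in Fcmr+/+ and 321 CPM in Fcmr-/- high-marker cells against 689 and 963 CPM, with log2 ratios of -2.29 and -1.58, and H2-Ab1 at 183 and 410.3 CPM against 819 and 1140 CPM, with -2.15 and -1.47. Isg15, a ubiquitin-like protein induced by type I interferon, stood at 52.2 and 93.2 CPM against 159 and 281 CPM, and the antiviral gene Rsad2 at 63.8 and 78.9 CPM against 183 and 252 CPM. Cxcl10, a chemokine that draws T cells, stood at 50.8 and 71.0 CPM against 160.1 and 282 CPM. Mmp12, the macrophage elastase, stood at 150.3 and 287 CPM against 672 and 826 CPM. Il7r (-1.71 and -2.12), F10, which encodes coagulation factor X (-1.87 and -2.18), Slpi, a protease inhibitor (-1.80 and -2.59), and AA467197 (-2.62 and -2.50) completed the 10.

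Lists of genes with a shared role were summarized by the median log2 ratio of their members with 20 CPM or more, beside 0.07 and 0.10 for all genes. The lists were chosen with earlier results of these data known, so their medians and counts are descriptions. Resident and perivascular macrophage genes stood apart upward, with a median of 1.02 over 22 genes in Fcmr+/+ and 1.29 over 23 in Fcmr-/-. In both libraries 11 of the list were 2-fold higher (0.763% of all genes were) and none 2-fold lower (0.95% of all genes were). Pf4 was the most abundant of the list, at 5611 against 3846 CPM in Fcmr+/+ and 5673 against 3028.5 CPM in Fcmr-/-. F13a1, coagulation factor XIII A, stood at 1135 and 1208 CPM against 532 and 402 CPM, and Sepp1, the selenium carrier selenoprotein P, at 2895 and 2075 CPM against 1299 and 850.0 CPM. Mgl2, a lectin of the same list, went against it in Fcmr+/+ (-0.91, and 0.43 in Fcmr-/-).

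**Figure D2:**
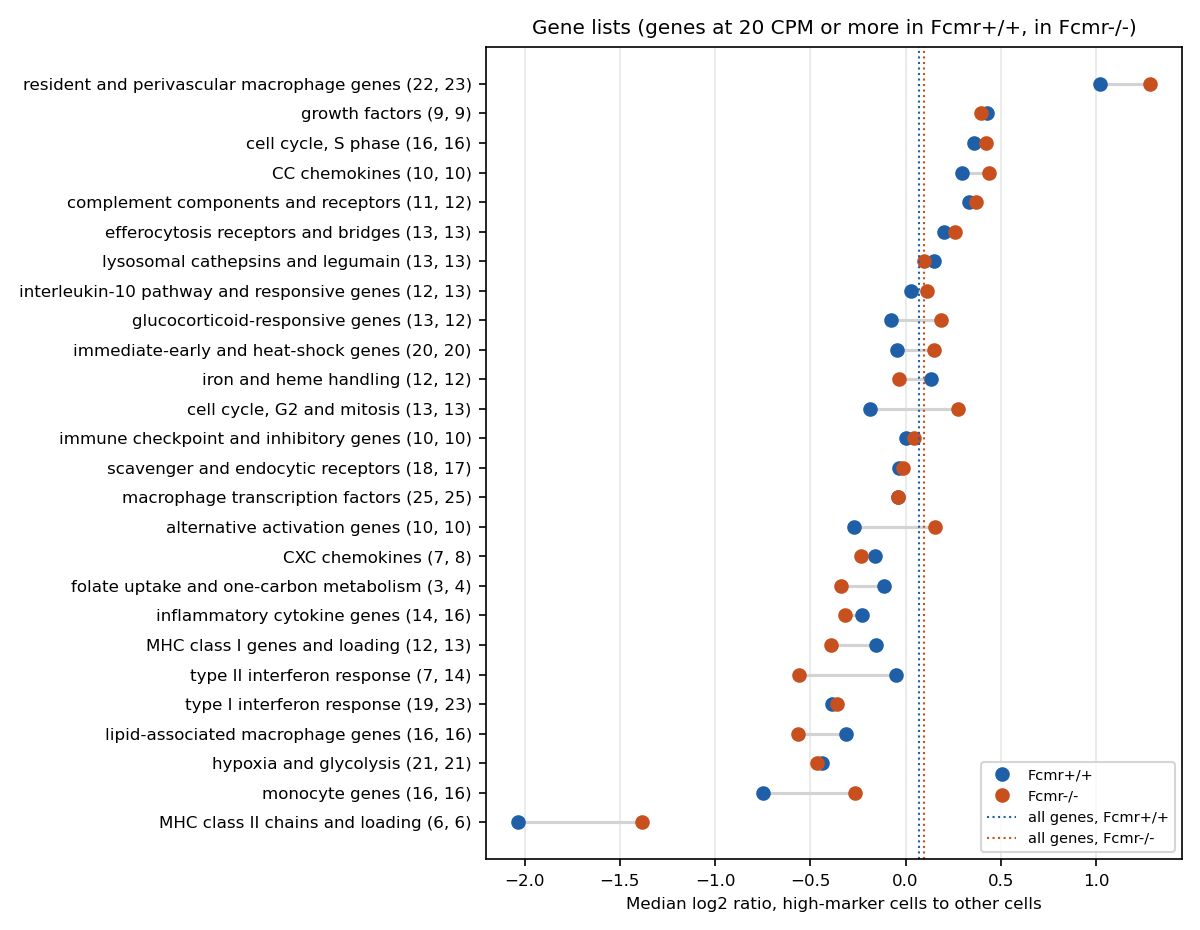
Median log2 ratio of high-marker cells to the other cells for each gene list, blue Fcmr+/+ and orange Fcmr-/-, with the number of measured genes per library in parentheses and the medians over all genes as dotted lines. Resident and perivascular genes were highest (1.02 and 1.29) and MHC class II genes lowest (-2.04 and -1.38), and the remaining lists lay between them.

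MHC class II chains and loading genes were the lowest list, with a median of -2.04 over 6 genes in Fcmr+/+ and -1.38 in Fcmr-/-. With Mrc1 left out of the ranking the medians were -1.32 and -0.68. All 6 were 2-fold lower in Fcmr+/+ and 5 of 6 in Fcmr-/-, where 1.37% and 1.63% of all genes were. The most abundant was Cd74, the invariant chain, at 637 against 2432 CPM and 1469 against 3366 CPM. MHC class I genes were closer to the other cells (-0.15 and -0.39, and 0.03 in Fcmr+/+ with Mrc1 left out of the ranking), with B2m at 2284 against 2520.5 CPM and 2801 against 3420.4 CPM. For type I interferon response genes the median was -0.38 over 19 genes and -0.36 over 23. In both libraries 6 of these genes were 2-fold lower (0.95% of all genes were), among them Ifit1, Ifit2 and Ifit3. None was 2-fold higher (0.763% of all genes were), while Ddx60 had 0.76 and 0.79. In Fcmr-/- the median turned to 0.09 when Mrc1 was left out of the ranking. The type II interferon list had -0.05 over 7 genes and -0.56 over 14.

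Among inflammatory and monocyte genes, the inflammatory cytokine list had medians of -0.23 and -0.32, with Il1b (interleukin-1 beta) at 811 against 1714 CPM and 944 against 1984 CPM, and Cxcl2, the most abundant, at 3180.5 against 3497 CPM and 2795 against 3476 CPM. Monocyte genes had -0.75 in Fcmr+/+ and -0.27 in Fcmr-/-, where the median was 0.23 with Mrc1 left out of the ranking. Ly6c2, the classical monocyte marker, was 2-fold lower in both (-2.21 and -1.73), whereas Ccr2, the receptor that brings monocytes into tissue, was at 82.3 against 135 CPM in Fcmr+/+ and at 167 against 134 CPM in Fcmr-/-. Hypoxia and glycolysis genes had -0.44 and -0.47, with 1 of 21 above 0 in each library (63.5% and 64.5% of all genes were above). Among those below 0 were Slc2a1, the glucose transporter GLUT1 (-1.34 and -1.33), and Vegfa, the vessel growth factor (-1.24 and -1.11). Lipid-associated macrophage genes had -0.31 and -0.56, and -0.03 and -0.23 with Mrc1 left out of the ranking. Apoe, the most abundant of these, was at 6792 against 6769 CPM and 6429.6 against 5053 CPM, and Spp1, osteopontin, at 1662 against 2807 CPM and 2670.5 against 5091 CPM.

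The CC chemokine list had medians of 0.30 and 0.44 over 10 genes. Ccl8 stood at 1757 against 533 CPM in Fcmr+/+ (1.72) and at 2539 against 1348 CPM in Fcmr-/- (0.91), and Ccl12, which like Ccl8 binds monocyte chemokine receptors, at 1018.5 against 384 CPM and 1259.9 against 596 CPM (1.41 and 1.08). Ccl5 went down within this list (-1.74 and -3.82). Complement genes had 0.33 and 0.37, with C1qb the most abundant at 3986 against 3161 CPM and 3866 against 2965 CPM. CXC chemokines had medians of -0.16 and -0.24 (-0.70 in Fcmr+/+ with the top 2% and -1.12 in Fcmr-/- with at least 1 UMI of each marker), while their most abundant member, Pf4, was higher in both libraries.

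Growth factors had 0.43 and 0.40, S phase genes 0.36 and 0.42 (-0.43 in Fcmr-/- when Mrc1 was left out of the ranking), efferocytosis genes 0.20 and 0.26 and lysosomal genes 0.15 and 0.10. G2 and mitosis genes were at -0.19 in Fcmr+/+ and 0.27 in Fcmr-/-, and alternative activation genes at -0.27 and 0.16, but neither list kept its sign over the alternatives in either library. G2 and mitosis genes ranged from -0.91 with the top 2% to 0.24 at 5000 genes or fewer in Fcmr+/+ and turned to -0.28 in Fcmr-/- with Mrc1 left out of the ranking, and alternative activation genes reached 0.25 in Fcmr+/+ at a minimum of 50 CPM and -0.41 in Fcmr-/- at 5 CPM. The medians were, for glucocorticoid-responsive genes, -0.07 and 0.19, for immediate-early and heat-shock genes -0.05 and 0.15, and for iron and heme genes 0.13 and -0.04. Scavenger receptors (-0.04 and -0.02), macrophage transcription factors (-0.04 in both), interleukin-10 pathway genes (0.03 and 0.12), inhibitory genes (0.00 and 0.04) and one-carbon metabolism genes (-0.12 over 3 genes and -0.34 over 4) completed the set. The one-carbon medians turned to 0.160 and 0.235 at a minimum of 5 CPM. Single genes differed within these lists. Among scavenger receptors Stab1 was 2-fold higher in both libraries, though its log2 ratio fell to 0.617 and 0.587 under other ways of choosing the cells. Cd68 stood at 1413 against 1307 CPM and 1159 against 1266 CPM, and among transcription factors Maf, which drives resident macrophage genes, was at 717 against 389 CPM and 802 against 433 CPM (0.88 and 0.89).

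To see whether these genes changed at the cut or gradually, all cells were divided into bins of 5% by their share of the 3 markers. Over bins 1, 2, 5 and 10, Lyve1 went from 126 to 56.3, 11.9 and 4.87 CPM in Fcmr+/+ and from 258 to 80.2, 24.4 and 2.64 CPM in Fcmr-/-. Ednrb went from 347 to 215, 91.6 and 48.7 CPM and from 255 to 136, 65.6 and 30.8 CPM, and Gas6 from 659 to 504, 305 and 126 CPM and from 544 to 449, 240 and 129 CPM. Lyve1 thus dropped within the first bins and Gas6 spread over many. Isg15 rose from 52.2 to 149 CPM between bins 1 and 10 in Fcmr+/+ and from 93.2 to 226 CPM in Fcmr-/-. Ccl8 differed between the libraries: in Fcmr+/+ it went from 1757 to 680 and 328 CPM over bins 1, 5 and 10, and in Fcmr-/- from 2539 to 1779 and 1634 CPM.

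**Figure D3:**
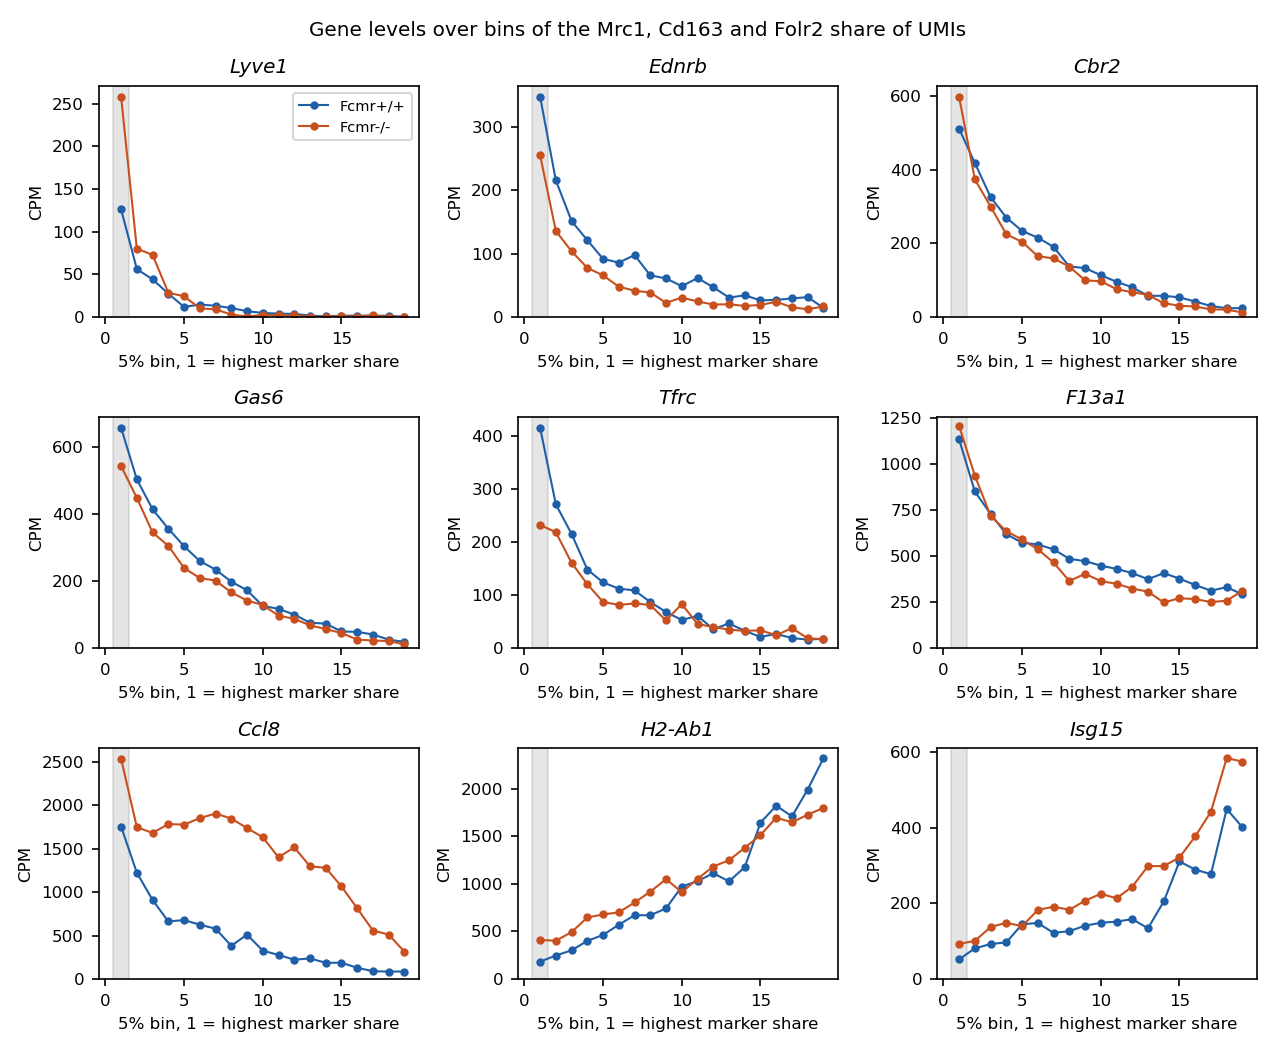
Level of 9 genes (CPM, linear axes from 0) over bins of 5% of all cells ordered by the share of Mrc1, Cd163 and Folr2 UMIs, blue Fcmr+/+ and orange Fcmr-/-, with the high-marker cells as bin 1 (shaded) and the lowest bins, which hold the cells with none of the 3 genes, merged into bin 19. Lyve1 falls within the first bins, Gas6 and Cbr2 fall gradually, H2-Ab1 and Isg15 rise, and Ccl8 stays above 1000 CPM to bin 15 in Fcmr-/- only.

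By genes the rule had not used, the high-marker cells lay near each other without being a separate group. On 10 principal components of 1333 variable genes without the 3 markers, 28.2% of the 30 nearest cells of a high-marker cell were high-marker cells, against 3.25% for the other cells and 5% of all cells. The share was 29.2% in Fcmr+/+ and 26.2% in Fcmr-/- (5.16% and 1.80% for the other cells), and 74% of the neighbors were in the top 25% by marker share. Only 24 of 473 Fcmr+/+ and 32 of 245 Fcmr-/- high-marker cells had no high-marker neighbor, and 107 and 50 had 15 or more. The neighborhoods thus ran across the cut.

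The same top 5% rule applied to other genes showed which states shared cells with this one, each also holding 718 cells. The C1qa, C1qb and C1qc-high cells took 12.1% of the high-marker cells (10.4% in Fcmr+/+, where they were 4.14% of all cells, and 15.5% in Fcmr-/-, where they were 5.69%), and the S phase cells took 8.77%. MHC class II-high cells took 1.11%, Ly6c2, Ccr2 and Plac8-high cells 1.67%, Trem2, Spp1 and Gpnmb-high cells 1.11%, Il1b and Cxcl2-high cells 1.25%, interferon-high cells 0.696% and hypoxia-high cells 0.139%, and G2 and mitosis cells 5.71%. The share that any of these states took of all cells was 5%. C1q, S phase and G2 and mitosis cells took more than that share, though by library G2 and mitosis cells took 5.07% of high-marker cells against 5.49% of all cells in Fcmr+/+ and 6.94% against 4.61% in Fcmr-/-. The other 6 states took less. All share the total UMIs of a cell, so a large amount of one transcript lowers the share of another.

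The complement C1q state was the closest in cells, and differed from the high-marker cells in both libraries. Against the 214 Fcmr+/+ and 417 Fcmr-/- C1q-high cells that were not high-marker cells, the high-marker cells had more Ednrb (347 against 29.5 CPM, and 255 against 10.6 CPM), Lyve1 (126 against 10.5, and 258 against 3.31) and F13a1 (1135 against 430.3, and 1208 against 202). They had less C1qa, on which the other state was chosen (3249 against 5916, and 3402 against 5972), Apoe (6792 against 15143, and 6429.6 against 10001) and Cd74 (637 against 2489, and 1469 against 4835). The log2 ratio of H2-Ab1 was -2.20 and -1.98. Ccl8 stood at 1757 against 1068 CPM in Fcmr+/+ and at 2539 against 3324 CPM in Fcmr-/-, so the direction of this chemokine was not the same in the 2 libraries.

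Within the high-marker cells, Lyve1 was concentrated in a part of them. Cells with 5 or more Lyve1 UMIs, a limit chosen after the values were seen, were 65 of 473 in Fcmr+/+ (13.7%, 10.8-17.2%) and 54 of 245 in Fcmr-/- (22.04%, 17.0-27.8%), and held 87.0% and 92.6% of the Lyve1 UMIs of all high-marker cells. Among the other cells 96 in Fcmr+/+ (1.63%) and 72 in Fcmr-/- (0.929%) reached the limit. In each library, more Lyve1-high cells thus lay outside the high-marker cells than within them. Lyve1-high cells were also deeper than the rest of the high-marker cells (medians of 23068 against 19774 and 14213 against 12947 UMIs), which bears on a limit in UMIs.

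**Figure D4:**
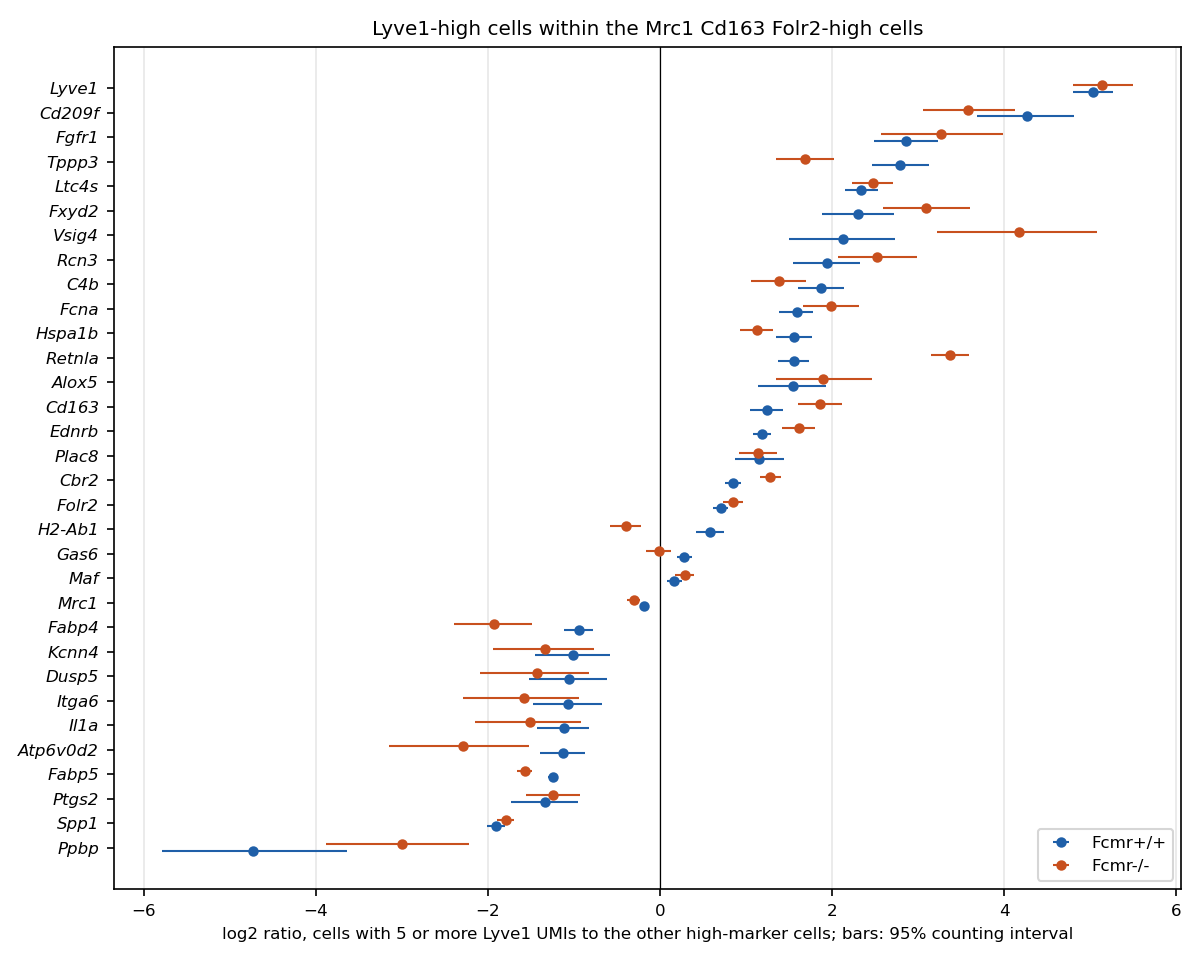
Log2 ratio of CPM in Lyve1-high cells to the rest of the high-marker cells, blue Fcmr+/+ and orange Fcmr-/-, with 95% counting intervals, for the genes highest and lowest in Lyve1-high cells and for genes of the text. Cd163 and Folr2 lie above 0, Mrc1 slightly below 0 (-0.18 and -0.31), and Ppbp lies lowest in both libraries (-4.73 and -3.00).

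The rule genes' levels in Lyve1-high cells are given as a description. Cd163 stood at 206 against 86.6 CPM in Fcmr+/+ and at 305 against 83.3 CPM in Fcmr-/-, and was found in 60% against 40.7% and in 51.9% against 22.5% of cells. Folr2 stood at 828 against 507 CPM and 1013 against 563 CPM, and Mrc1 at 1999 against 2269 CPM and 1785 against 2207 CPM. All 3 genes chose the cells by their sum, so more of one allows less of another and no relation is read from these values.

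Beyond the rule genes, Cd209f, a lectin, stood at 57.7 against 2.05 CPM and 154 against 12.0 CPM, Ltc4s at 263 against 51.1 CPM and 447 against 79.6 CPM, and Vsig4, a complement receptor of resident macrophages, at 22.96 against 4.47 CPM and 56.4 against 2.17 CPM. Fgfr1, a fibroblast growth factor receptor, Fxyd2, Rcn3, Tppp3, Fcna, Alox5, the enzyme that starts leukotriene synthesis, C4b and Ednrb were each more than 2-fold higher in both, as were Plac8, of the monocyte list (1.16 and 1.14), and the heat-shock gene Hspa1b (1.56 and 1.13). Lyve1-high cells also had a higher mitochondrial share (6.69% against 5.89% in Fcmr+/+ and 6.28% against 5.20% in Fcmr-/-), and its part in these ratios was not tested. Retnla (RELM alpha), a protein of alternative activation, stood at 251 against 84.9 CPM in Fcmr+/+ and 802 against 76.4 CPM in Fcmr-/-, with 99.2% and 99.6% of its UMIs in the tenth of high-marker cells that had most of it.

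Among the genes lower in Lyve1-high cells, Spp1 stood at 503 against 1888 CPM and 941 against 3259 CPM, and Fabp5, a fatty acid carrier, at 1836 against 4360 CPM and 1300 against 3873 CPM. Ppbp, a platelet chemokine (-4.73 and -3.00), Ptgs2, cyclooxygenase-2 (-1.33 and -1.24), and Il1a, interleukin-1 alpha (-1.11 and -1.51), were lower in both libraries, as were Atp6v0d2 (-1.13 and -2.29), Itga6 (-1.06 and -1.58), Dusp5 (-1.05 and -1.43) and Kcnn4 (-1.01 and -1.33). Maf (0.17 and 0.29) and Gas6 (0.28 and -0.02) were close to equal, and H2-Ab1 was at 255 against 170 CPM in Fcmr+/+ and 331 against 437 CPM in Fcmr-/-. Genes higher in high-marker cells than in the other cells thus did not all follow Lyve1 within them: Gas6 and Maf differed little, Cbr2 had 0.85 and 1.28, and Ltc4s had 2.34 and 2.47.

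Between genotypes, 49 genes were at least 2-fold higher in Fcmr-/- than in Fcmr+/+ high-marker cells, of 5640 with 20 CPM or more in either (0.869%), and 11 were at least 2-fold lower (0.195%). In the other cells 41 were higher (0.761%) and 14 lower (0.26%), of 5385. The median over all genes was 0.03 in high-marker cells and 0.01 in the other cells. In high-marker cells the higher count ranged over the alternatives from 28 (Folr2 left out of the ranking) to 103 (at least 1 UMI of each marker), and the lower count from 6 (at a minimum of 50 CPM) to 50 (at 5 CPM). These are differences between 1 library and 1 library.

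The largest ratios were in Cxcl9, Iigp1, Ly6a and Gbp2, which interferon gamma induces, and all were also over 2-fold in the other cells. Cxcl9, a T cell chemokine, stood at 1.82 CPM in Fcmr+/+ and 53.5 CPM in Fcmr-/- high-marker cells (log2 ratio 4.27, 3.77-4.75), and at 15.5 and 190 CPM in the other cells (3.53). Iigp1, a GTPase against intracellular pathogens, stood at 3.34 and 76.2 CPM (4.15), with 4.14 in the other cells, and Ly6a (Sca-1) at 19.8 and 237 CPM (3.51), with 3.40 in the other cells. Gbp2, a guanylate-binding protein, had 2.70 and 2.601. AW112010 had 1.93 and 2.51. The type II interferon list had a median of 1.01 over 11 genes in high-marker cells and 1.53 over the same genes in the other cells, and the type I list 0.66 and 0.60 over 19 genes. Genes entered with 20 CPM in either genotype, and Cxcl9 and Iigp1 reached it in Fcmr-/- high-marker cells alone. Such entries favor a median above 0, so these list medians are a description.

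Several lists and single genes differed more between genotypes in high-marker cells than in the other cells. Plac8 stood at 47.3 and 191 CPM in high-marker cells (1.99, 1.82-2.16) and at 145 and 234 CPM in the other cells (0.69), and Ms4a4c had 1.90 against 1.13. Ly6e had 1.86 against 1.34, Pyhin1 1.65 against 0.74 and Cxcl3, a neutrophil chemokine, 1.90 against 0.96. The monocyte list had a median of 0.48 over 16 genes against -0.02 for the same genes in the other cells, with Fn1 (fibronectin) at 308 and 593 CPM in high-marker cells and 566 and 489 CPM in the other cells. MHC class II genes had 1.17 against 0.48 over 6 genes. The G2 and mitosis list (0.31 against -0.20 over 13 genes) and the alternative activation list (0.34 against -0.02 over 9) also differed more. The resident and perivascular list went the other way, with a smaller difference in high-marker cells (0.02 against -0.41 over 23). List medians between genotypes were not recomputed under the alternatives. Against the other cells, the G2 and mitosis and alternative activation lists did not keep their sign over them in either library. H2-Ab1 stood at 183 and 410.3 CPM in high-marker cells and at 819 and 1140 CPM in the other cells, so both genotypes' high-marker cells remained below both groups of other cells.

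**Figure D5:**
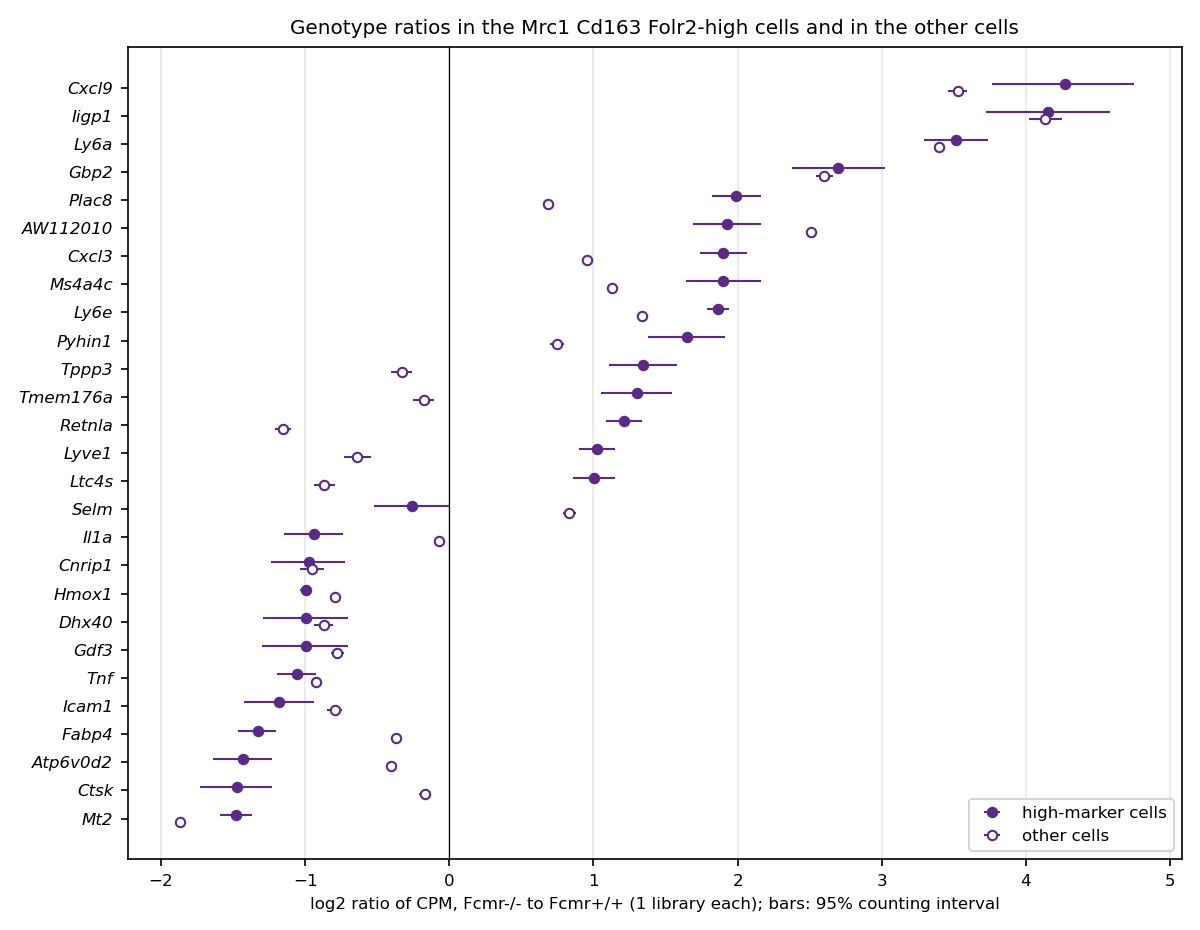
Log2 ratio of CPM in Fcmr-/- to Fcmr+/+ (1 library each) in high-marker cells (filled) and in the other cells (open), with 95% counting intervals, for the 27 genes named by size of the ratio or of its difference. Cxcl9, Iigp1, Ly6a and Gbp2 are high in both groups, while Retnla, Ltc4s, Lyve1, Tppp3 and Tmem176a are above 0 in high-marker cells and below 0 in the other cells.

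The largest differences between the 2 ratios were in Retnla, Ltc4s, Tppp3, Lyve1 and Tmem176a, of which the first 3 were also higher in Lyve1-high cells. Retnla stood at 112 CPM in Fcmr+/+ and 260.4 CPM in Fcmr-/- high-marker cells (1.21), and at 70.8 and 31.3 CPM in the other cells (-1.16), a difference of 2.37. Few cells carried it, since 11.8% and 11.4% of high-marker cells had a UMI (5.29% and 7.35% thinned, against 3.33% of the T and NK cells), and its level was uneven over the bins, with 212 CPM in bin 12 of Fcmr+/+. Ltc4s had 1.00 against -0.87, Lyve1 1.02 (0.90-1.15) against -0.64, Tppp3 1.34 against -0.33 and Tmem176a 1.30 against -0.18. These values stood beside the larger share of Lyve1-high cells in the Fcmr-/- high-marker cells (22.04% against 13.7%), and the part of that share in their ratios was not tested.

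Among genes lower in Fcmr-/- high-marker cells were the metal-binding Mt2 (552 and 198 CPM, -1.48, with -1.87 in the other cells), Hmox1, heme oxygenase 1 (3160.3 and 1588 CPM, -0.99, with -0.79), and Tnf, tumor necrosis factor (288 and 138 CPM, -1.06, with -0.93). Icam1 had -1.18 against -0.80, Gdf3 -0.99 against -0.78, Dhx40 -0.99 against -0.87 and Cnrip1 -0.98 against -0.95. A second group was lower mainly in the high-marker cells. Ctsk, cathepsin K, stood at 112 and 39.7 CPM (-1.48) with -0.17 in the other cells, Atp6v0d2, a proton pump subunit, at 156 and 57.0 CPM (-1.43) with -0.41, and Fabp4, a fatty acid carrier, at 362 and 143 CPM (-1.33) with -0.37. Il1a had -0.94 against -0.07. Selm, a selenoprotein, was not of this group: it had -0.26 in high-marker cells and was higher in the other Fcmr-/- cells (0.83).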

How the data were processed

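Tumor phagocytes were profiled as 2 single-cell libraries, 1 per genotype. What the authors deposited were UMI counts, not normalized, made with Cell Ranger on GRCm38, for 27998 genes and 6392 Fcmr+/+ and 8017 Fcmr-/- cells. Cells with 200 to 7000 genes and at most 30% mitochondrial UMIs were kept, which removed 58; no doublet caller was run, so the gene limit alone acted on doublets. The rule genes, gene lists and markers were chosen with earlier results of these data known.

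UMIs were summed over groups of cells and given as CPM, with 1 CPM added before log2 ratios; genes needed 20 CPM in either group, and 50 CPM to be named. Named were the 15 highest and 10 lowest genes by the weaker library, the 10 highest and 10 lowest between genotypes, the 5 highest and 5 lowest differences, and the most abundant or 2-fold genes of each list; mitochondrial, ribosomal and unnamed genes were counted only. Some genes of the text, those of the bins, of the Lyve1-high cells and of the comparison with C1q-high cells, were chosen after their values were seen. Intervals are at 95% for counting error, and where 0 counts were seen up to 3 were allowed. Scripts used Python 3.11.15, numpy 2.4.6, scipy 1.17.1, scanpy 1.11.5 and scikit-learn 1.9.0 and were tested on simulated data. Alternatives varied the ranking, the cell filters, the pseudocount, the gene minimum and the scaling. A few genes that the rule would name are not reported here.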

Additional observations from a re-analysis of the deposited data

Results flagged for a closer look

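Of the genes ranked for naming, the most abundant gene of each list and 5 others (Hspa1a, Hspa1b, Ccr2, Fn1 and Mgl2) chosen after their values were seen, 11 had ratios of high-marker cells to other cells with opposite signs in the 2 libraries and counting intervals apart from 0. The difference between the libraries was not tested beyond counting error, since each genotype had 1 library. Given as log2 ratios in Fcmr+/+ and then Fcmr-/-, they were Ctsk (0.15 and -1.16), Hspa1a (-0.63 and 0.59) and Hspa1b (-0.46 and 0.89), both heat-shock genes, and Fn1 (-0.87 and 0.28) and Ccr2 (-0.71 and 0.32), both of the monocyte list, and the lectin Mgl2 (-0.91 and 0.43). The others were smaller: Irf1 (0.17 and -0.43), Ly6e (-0.21 and 0.32), Cd68 (0.11 and -0.13), Hmox1 (0.083 and -0.12) and Dusp1 (-0.071 and 0.14).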

How the results depend on the processing

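No paired analysis was possible because each genotype had 1 library, and for the same reason no replicate could be left out. Of 134 main values over 23 alternative settings, 90 moved by less than their counting interval or 1.5 times and 44 moved; of 1168 list medians, 25 changed sign from a value of 0.1 or more in size (79 at any size), 42 others moved by 0.25 or more and 1101 did neither. The share of high-marker cells in Fcmr+/+ and Fcmr-/- became 5.01% and 5% with the top 5% of each library, by construction, 3.05% and 1.16% with the top 2%, 14.6% and 6.31% with the top 10%, 6.55% and 3.78% without Mrc1, and 3.31% and 0.907% with at least 1 UMI of each marker. The share of high-marker cells among their neighbors became 25.4% with the top 5% of each library, 19.3% with the top 2%, 38.3% with the top 10%, 23.8% with thinned cells, 30.9% with equal weights, 25.1% without Mrc1, 21.0% without Folr2, 14.6% with 1 UMI of each marker, 23.1% with a random 50% of UMIs, 29.5% without cells with other cell types' markers, 30.8% without dividing cells, 29.0% with 15 neighbors and, in an alternative chosen after seeing the data, 23.7% without Lyve1-high cells. Genes 2-fold higher in both libraries numbered 74 with the top 2%, 23 at 50 CPM or more and 63 by the mean over cells, and genes 2-fold lower 15 without Mrc1, 98 at 5 CPM or more and 30 at 50 CPM or more. Genes 2-fold higher in Fcmr-/- numbered 86 with the top 2%, 28 without Folr2, 103 with 1 UMI of each marker, 94 at 5 CPM and 29 at 50 CPM, and genes 2-fold lower 17 with the top 5% of each library, 35 with the top 2%, 21 without Mrc1, 17 without Folr2, 31 with 1 UMI of each marker, 19 without cells with other cell types' markers, 17 without dividing cells, 7 with a pseudocount of 5 CPM, 50 at 5 CPM and 6 at 50 CPM. Alternative activation medians changed sign in Fcmr+/+ to 0.141 without Folr2, 0.246 at 50 CPM and 0.045 without Lyve1-high cells, and in Fcmr-/- to -0.209 with the top 2%, -0.145 thinned, -0.044 with equal weights, -0.291 without Mrc1, -0.065 with a random 50% of UMIs, -0.080 without cells with other markers and -0.415 at 5 CPM. One-carbon genes became 0.016 without Mrc1 and 0.160 at 5 CPM in Fcmr+/+ and 0.235 at 5 CPM in Fcmr-/-, and interleukin-10 genes in Fcmr-/- -0.015 at 50 CPM and -0.030 without Lyve1-high cells. Without Mrc1, MHC class I genes became 0.029 in Fcmr+/+, and in Fcmr-/- type I interferon genes 0.087, monocyte genes 0.232, S phase genes -0.427 and G2 and mitosis genes -0.283. With equal weights, monocyte genes became 0.042 and S phase genes -0.063 in Fcmr-/-. G2 and mitosis genes in Fcmr+/+ became 0.091 with the top 10%, 0.236 at 5000 genes or fewer and 0.027 by the mean over cells. The cause was not tested. The log2 ratio of Lyve1 ranged from 1.94 to 3.44 in Fcmr+/+ and from 2.68 to 5.26 in Fcmr-/- over the ways of choosing the cells. Ednrb also stayed above 2-fold, with smallest ratios of 1.585 and 2.275. Some other named genes did not, among them Stab1 (smallest ratios of 0.617 and 0.587) and, on the low side, H2-Ab1 (-1.392 and -0.648). Leaving out cells whose barcode occurred in both libraries was also added after seeing the data.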
